A study of Mus musculus with 6 samples.

Results

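Serum response factor (SRF), its coactivator myocardin and 8 genes of the smooth muscle, filamin and ankyrin repeat families were examined in embryonic mouse ventricles after knockdown of Tbx5ua, a long non-coding RNA transcribed divergently from Tbx5. The genes were Srf, Myocd, Tagln, Tagln2, Cnn1, Cnn2, Ankrd1, Flna, Flnc and Filip1l, taken as the rows of the deposited table that carry these symbols, and all 10 were found among the 23284 genes listed. Ventricles were taken at E9.5 from 3 WT and 3 KD embryos of the C57BL/6 strain, as the labels give it (C57BL/6 J in the study's methods). All were tetraploid chimeras grown from ES cells, unmodified in the WT group. In the KD group (genotype Tbx5ua -/-) both alleles carried tandem polyadenylation signals inserted in the second exon of Tbx5ua with CRISPR/Cas9, after which the selection markers were removed with Cre. The sources used here do not say whether the WT cells went through the same handling. KD embryos were obtained in the study from a pair of ES cell lines, and the labels do not say which line gave which embryo. The table holds a single value per gene and group, expressed as FPKM (the fragments counted for a gene, corrected for the length of its transcripts and for the size of the library), so no spread between embryos can be given and every difference below is a description with no replicate check.

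SRF is a MADS-box transcription factor that binds a short AT-rich element, the CArG box, in the control regions of genes for actin and actin-binding proteins. It works with 2 kinds of partner: the myocardin family, which drives muscle and cytoskeletal genes, and the ternary complex factors of the Ets family, which drive genes that respond to growth factors. Early cardiomyocytes transiently express genes best known from smooth muscle, among them Tagln, Cnn1 and Acta2, so these genes do not by themselves mark smooth muscle cells at this stage.

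The sequences at the start sites were searched for the letters of the SRF element, and binding of SRF itself was not measured. RefSeq promoters (build GRCm38.p6, 250 bases before to 50 after each start site) were at hand for 8 of the 10 genes, with 10 start sites between them; Tagln and Myocd were not matched. The CArG box is a motif of 10 letters: CC, a run of A or T, and GG. This pattern is the same on both strands, though the letters of a single box need not be. A box occurred near 1 start site of each of 3 genes, Srf, Cnn2 and Filip1l. Over all 32851 promoters of this length 1.63% held it (1.81% of 27025 genes). Srf held 2 boxes, on chromosome 17 at chr17:46556225-46556254 and chr17:46556205-46556234 (minus strand). Those of Cnn2 and Filip1l lay at chr10:79988534-79988563 and chr16:57549170-57549199 (plus strand). Each is given below 5′ to 3′ on the strand of its gene, with the CArG box in capitals, because it is the element that SRF itself recognises.
Srf, 82 to 73 bases before the start site: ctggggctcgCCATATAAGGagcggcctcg
Srf, 62 to 53 bases before the start site: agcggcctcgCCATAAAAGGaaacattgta
Cnn2, 56 to 47 bases before the start site: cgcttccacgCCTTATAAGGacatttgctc
Filip1l, 62 to 53 bases before the start site: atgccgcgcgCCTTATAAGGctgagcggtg

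The boxes of Cnn2 and Filip1l had the same 10 letters, CCTTATAAGG. None of these 4 windows overlapped an exon in GENCODE release M21. The absence of a match elsewhere says only that these letters do not occur in the window examined. A second muscle element, MCAT (CATTCC on either strand), to which TEAD factors bind, occurred in the promoters of 4 of the 8 genes, Ankrd1, Flna, Flnc and Tagln2, against 16.6% of all genes with a promoter in the table (14.7% of promoters). The log2 ratios of KD over WT of Flna and Tagln2 were -0.09 and 0.02. Ankrd1 and Flnc were at least 1.5-fold lower in KD, as described below, so only their windows are shown, with MCAT in capitals. Both the motif and the windows shown were thus chosen after the values were seen. A link between MCAT and the ratios was not tested. Those of Ankrd1 are at chr19:36120037-36120066 and chr19:36119950-36119979 (minus strand), where GENCODE places an exon of Ankrd1 upstream of the RefSeq start site, and that of Flnc, at chr6:29433140-29433169 (plus strand), spans the upstream of its 2 RefSeq start sites.
Ankrd1, 210 to 205 bases before the start site: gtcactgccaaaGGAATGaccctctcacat
Ankrd1, 123 to 118 bases before the start site: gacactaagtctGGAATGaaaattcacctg
Flnc, 104 to 99 bases before its downstream start site: cgggccgggcggCATTCCtgggaggccggc

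The transcription factor and its coactivator had nearly the same level in both groups. Srf (chromosome 17, 46546839 to 46556162, build mm10) had a level of 8.41 FPKM in WT against 7.91 FPKM in KD, a log2 ratio of KD over WT of -0.09. Myocd (chromosome 11, 65176571 to 65269989), which encodes the cardiac and smooth muscle coactivator that acts through SRF, had 48.0 FPKM in WT against 48.3 FPKM in KD, a log2 ratio of 0.01. Per length of transcript, the level of Myocd was 5.71 times that of Srf in WT and 6.11 times in KD. The related coactivators were expressed at lower levels. Mkl1 (now Mrtfa), which carries actin signals to SRF, had 3.62 FPKM in WT against 4.62 FPKM in KD, and Mkl2 (Mrtfb) had 5.88 and 5.19 FPKM. Myocd therefore made up 83.5% of the summed FPKM of the myocardin family in WT and 83.1% in KD.

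**Figure D1:**
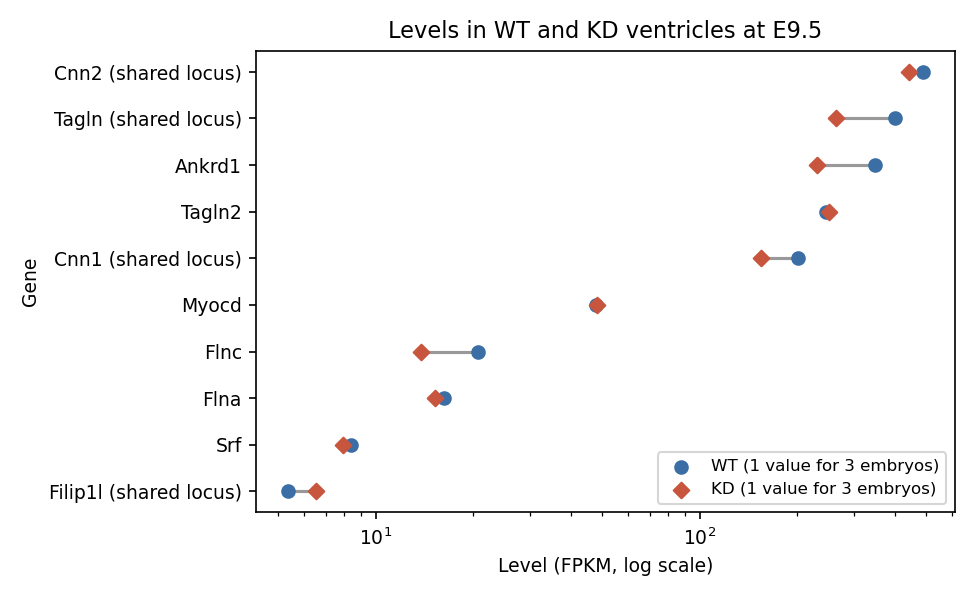
Level of each of the 10 genes on a log scale of FPKM, with 1 point for the WT and 1 for the KD group and a line joining them; each point is a single value over 3 embryos, so no error bar can be drawn. The points for Tagln, Ankrd1, Flnc and Cnn1 lie apart with KD below WT, while those of Myocd, Tagln2, Srf and Flna nearly coincide.

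By ratio, the largest differences among the 10 genes were those of Tagln, Ankrd1 and Flnc, each lower in KD. Tagln (transgelin, SM22α), an actin-binding protein of smooth muscle and early heart muscle, had 400.3 FPKM in WT against 263 FPKM in KD, 1.52-fold lower in KD (log2 ratio -0.61). Ankrd1 (chromosome 19, 36111965 to 36119844) encodes an ankyrin repeat protein of the sarcomere and nucleus that is known for its response to stretch. Its level was 347 FPKM in WT against 231 FPKM in KD, 1.505-fold lower in KD (log2 ratio -0.59). Flnc (chromosome 6, 29433153 to 29461888), the filamin of striated muscle that links actin at the Z-disc, had 20.7 FPKM in WT against 13.8 FPKM in KD, 1.504-fold lower in KD (log2 ratio -0.59). No other of the 10 genes was 1.5-fold apart. Ankrd1 and Flnc passed that bound by a narrow margin, and the next gene below it was Cnn1 at 1.305.

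Cnn1 (calponin 1), which binds actin and restrains myosin in smooth muscle, had 201 FPKM in WT against 154 FPKM in KD (log2 ratio -0.38). Cnn2, a calponin found in many cell types, was the most abundant of the 10 genes, with 489 FPKM in WT against 442 FPKM in KD (log2 ratio -0.15). Flna (chromosome X, 74223461 to 74246534), the broadly expressed filamin that crosslinks actin under the cell membrane, had 16.2 FPKM in WT against 15.2 FPKM in KD (log2 ratio -0.09). Tagln2 (chromosome 1, 172500246 to 172507375), the transgelin of non-muscle and blood cells, had 246 FPKM in WT against 250.2 FPKM in KD (log2 ratio 0.02). Filip1l, named for its likeness to a filamin A interacting protein, had the lowest level of the 10 and the highest ratio, with 5.36 FPKM in WT against 6.53 FPKM in KD (log2 ratio 0.28).

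Of the 10 genes, 7 had a lower and 3 a higher value in KD, which became 9 and 1 when KD was scaled to the WT sum of FPKM, since Myocd and Tagln2 then lay just below 0. Over the 11366 genes with a mean of both group values of at least 1 FPKM, a bound that all 10 passed, 5768 were higher and 5598 lower, and 5102 and 6264 under the same scaling. Their median log2 ratio was -0.12, against 0.00 over these 11366 genes. At least 1.5-fold lower were 3 of the 10, against 2.9% of these 11366 genes, and 0 of the 10 were at least 1.5-fold higher, against 4.13%. The genes were selected on the WT and KD group values of this same table, so their ratios, their median and their count are a description and support nothing by themselves. The share past the bound differed with level. Among the 5732 genes with a mean of at least 10 FPKM, to which Tagln, Ankrd1 and Flnc belong, 1.22% were at least 1.5-fold lower, and among the 1176 genes with at least 100 FPKM, to which Tagln and Ankrd1 belong, 1.7% were. In summed level the 10 genes had 1783 FPKM in WT against 1432 FPKM in KD, and Tagln and Ankrd1 together accounted for 72.3% of that difference. In whole ventricles, fewer cells of a type and less RNA in each cell cannot be told apart.

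**Figure D2:**
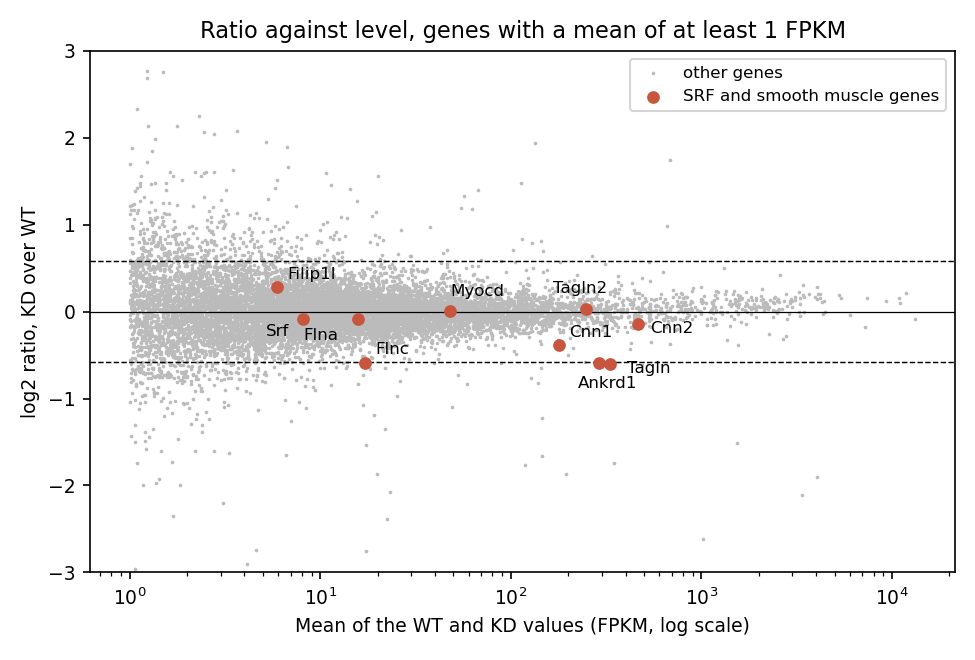
Log2 ratio of KD over WT against the mean of both group values in FPKM (log scale) for the genes with a mean of at least 1 FPKM, in grey, with the 10 genes in red; dashed lines mark 1.5-fold, and 57 genes at 0 in 1 group and 8 beyond the axis are not drawn. Tagln, Ankrd1 and Flnc sit on or just beyond the lower dashed line, where few genes of a similar level are found, and the other 7 lie inside the lines.

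Tagln, Flnc and Cnn1 each had a lower ratio of KD to WT than the relatives of their own family described here. That order was noticed after the values were seen and was not tested. The myocardin family showed no such order, with Mkl2 below Myocd and Mkl1 above it. Mkl1 shares its locus with 1 other gene, which makes its value less certain, as for the shared rows described below. Tagln held 60.3% of the summed FPKM of the 3 transgelins in WT and 49.5% in KD, while Tagln2 held 37.1% and 47.1%. The level of Tagln was thus 1.63 times that of Tagln2 in WT and 1.05 times in KD. Tagln3, the transgelin of neurons, had 17.4 FPKM in WT against 17.8 FPKM in KD. For Flna and Flnc the order of the levels was reversed, since Flnc was 1.28 times Flna in WT and Flna was 1.10 times Flnc in KD.

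Calponin shares differed by fewer percentage points than those of Tagln, Tagln2, Flna and Flnc, which held larger WT shares than Cnn1. Cnn1 held 20.2% of the family sum in WT and 16.7% in KD, and Cnn3, a broadly expressed acidic calponin, held 30.6% and 35.5%, with 305 FPKM in WT against 328 FPKM in KD. Of the remaining relatives, Filip1 had 7.52 FPKM in WT against 6.34 FPKM in KD, the opposite direction to Filip1l, and the sum of both was 12.9 FPKM in each group. Ankrd23, a relative of Ankrd1 in muscle, had 1.37 and 1.58 FPKM, while Ankrd2 was listed at 0 in WT and at 0.00819 FPKM in KD.

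**Figure D3:**
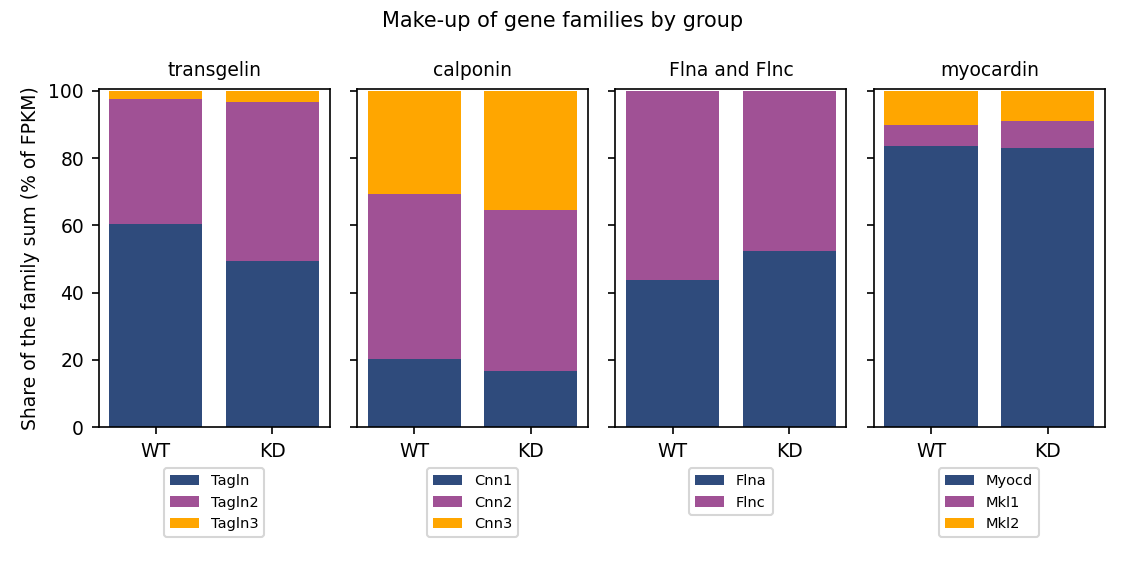
Share of the summed FPKM of each family held by each of its genes, as stacked bars that reach 100%, for WT and KD in the transgelin, calponin and myocardin families and for Flna with Flnc; each bar is a single group value. The shares of Tagln (60.3% to 49.5%) and Flnc (56.2% to 47.6% of both) are smaller in KD, while that of Myocd (83.5% to 83.1%) is nearly the same and those of Mkl1 (6.3% to 7.96%) and Mkl2 (10.2% to 8.93%) move in opposite directions.

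4 of the 10 rows share their locus in the table with other genes, which makes their values less certain, because Cuffdiff assigns reads within a merged locus. The row of Tagln spans chromosome 9 from 45863691 to 45936058 together with Pcsk7 and Rnf214, whereas GENCODE places Tagln itself at 45929619 to 45936058 on the minus strand. In GENCODE 67.9% of its exonic bases overlap exons on the opposite strand, 1241 bases with Gm48529 and 108 bases with Pcsk7. The labels describe no step that keeps the strand, so reads from Tagln and from such partners could not be told apart. Gm48529 has no row in the table. Of the genes sharing the row's locus, Pcsk7 had 5.0 FPKM in WT against 4.77 FPKM in KD, and Rnf214 had 8.45 and 7.72 FPKM. These values come from the same assignment of reads, and its part in the lower level of Tagln was not tested.

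The locus of Cnn1 is shared with 14 other genes and that of Cnn2 with 45, in merged regions of 334 and 672 kb. GENCODE places Cnn1 at 22099216 to 22109630 on chromosome 9 and Cnn2 at 79988584 to 79996062 on chromosome 10, and the exons of neither overlap those of another gene. Within the locus of Cnn1, Elof1 had 96.4 FPKM in WT against 90.8 FPKM in KD, and the microRNA gene Mir680-2 was listed at 0 in WT and at 21.1 FPKM in KD. Several neighbours of Cnn2 were more abundant than Cnn2 and differed by more FPKM in the opposite direction, among them Rps15 with 2165 FPKM in WT against 2242 FPKM in KD, Atp5d with 963 and 1056 FPKM, and Gpx4 with 762 and 849 FPKM. The part of read assignment in the values of Cnn1 and Cnn2 was not tested either. Filip1l shares its locus with 2610528E23Rik, which had 20.1 FPKM in WT against 20.2 FPKM in KD, and its exons overlap none in GENCODE (chromosome 16, 57353093 to 57573126). Ankrd1 and Flnc, as well as Srf, Myocd, Tagln2 and Flna, have loci of their own. Without the 4 shared rows, 2 of 6 genes were at least 1.5-fold lower and the median log2 ratio was -0.09. Over all genes without a shared locus and with a mean of at least 1 FPKM, 2.49% of 9212 were at least 1.5-fold lower.

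Other genes of the SRF pathway were taken from 5 lists of cofactors and targets, 58 genes in all without the 10 above. Of these, 49 had a mean of at least 1 FPKM, with 22 higher and 27 lower in KD (19 and 30 when KD was scaled to the WT sum) and a median log2 ratio of -0.06. At least 1.5-fold lower were 3 (Abra, Klf4 and Lmod1), 6.12% of the 49 against 2.9% of all genes, and at least 1.5-fold higher was 1 (Egr1), 2.04% against 4.13%. The lists were drawn up with earlier results of these data known, so these shares are descriptions.

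Among 10 cofactors and regulators of SRF, 4 were higher and 6 lower in KD, with a median log2 ratio of -0.14, and 2 were at least 1.5-fold lower. Abra (STARS), an actin-binding protein of muscle that promotes the entry of MRTF into the nucleus, had 26.6 FPKM in WT against 17.0 FPKM in KD (log2 ratio -0.64). Klf4, a zinc finger factor known to repress smooth muscle genes, had a low level of 1.27 FPKM in WT against 0.800 FPKM in KD (log2 ratio -0.67). Of the ternary complex factors, Elk4 had 1.35 FPKM in WT against 1.95 FPKM in KD (1.449-fold), Elk3 had 11.4 and 15.4 FPKM (log2 ratio 0.43), and Elk1 had 9.14 and 8.54 FPKM (log2 ratio -0.10). Of the 15 smooth muscle contractile genes 10 passed the bound on level, 4 higher and 6 lower in KD (3 and 7 when scaled to the sum), and their median log2 ratio was -0.09. Lmod1, a leiomodin that nucleates actin filaments in smooth muscle, had 4.23 FPKM in WT against 2.59 FPKM in KD (log2 ratio -0.71), the lowest ratio of those 10.

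No gene of the cytoskeletal or the cardiac targets was 1.5-fold apart. In the list of 16 cytoskeletal and adhesion genes 8 were higher and 8 lower (6 and 10 when scaled to the sum), 0 were at least 1.5-fold apart, and the median log2 ratio was -0.02. Its ratios ran from -0.38 for Ctgf, a matricellular protein, to 0.15 for its relative Cyr61, and its most abundant gene by the mean of both groups, Actb, had 1908 FPKM in WT against 1967 FPKM in KD. Of the cardiac targets 6 were lower and 2 higher, with 0 at least 1.5-fold apart and a median log2 ratio of -0.22. Here the lowest ratio was that of Nppb, the gene of a natriuretic peptide, with 485 FPKM in WT against 359.5 FPKM in KD (log2 ratio -0.43), and the highest was that of Ckm, muscle creatine kinase, at 0.56 with a low level. Tnnc1, cardiac troponin C, was the most abundant gene of the list among those with a value, with 3329.5 FPKM in WT against 3215 FPKM in KD. Actc1 has no value because Cuffdiff listed it as having too many reads, so its rank is unknown.

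The median of the targets that answer to growth factors lay on the other side of 0. Of 8 immediate early genes 5 passed the bound on level, 4 of them higher and 1 lower in KD, with a median log2 ratio of 0.17. Egr1, a zinc finger factor induced within minutes of stimulation, had 8.41 FPKM in WT against 15.9 FPKM in KD (log2 ratio 0.92). In a further list outside these counts, the sarcomere partners of Ankrd1 and filamin C, 6 of 8 passed the bound, and 0 were at least 1.5-fold apart. Xirp1, which binds filamin C, had the lowest ratio (-0.40), with 17.4 FPKM in WT against 13.2 FPKM in KD. Myoz2, a Z-disc protein that binds filamin C, had the highest (0.36), and Cryab, a small heat shock protein, was the most abundant with 699.6 FPKM in WT against 641 FPKM in KD.

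**Figure D4:**
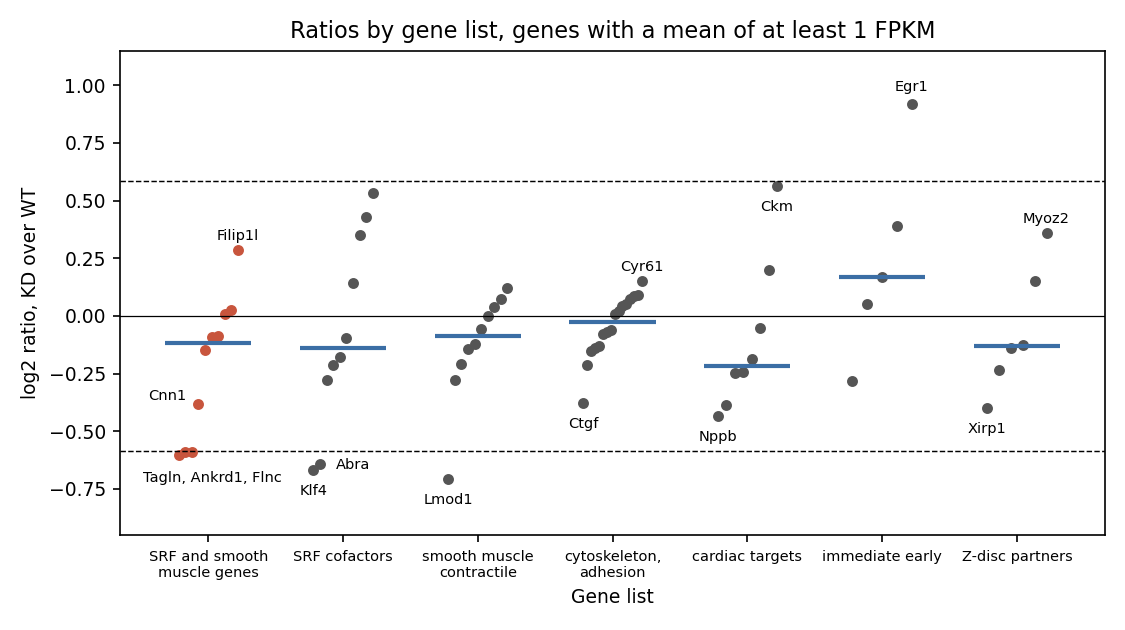
Log2 ratio of KD over WT for each gene with a mean of at least 1 FPKM in the 10 genes (red) and 6 further lists (grey); blue bars are the medians, dashed lines mark 1.5-fold, and horizontal position within a list only separates the points. Beyond the lines lie Tagln, Ankrd1, Flnc, Klf4, Abra and Lmod1 on the lower side and Egr1 on the upper side.

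Markers of cell types were examined for the tissue that the labels name. All 7 markers of ventricular cardiomyocytes were expressed, with Myl2 at 10924 FPKM in WT against 12702 FPKM in KD, and 0 of 7 were at least 1.5-fold apart (5 higher, 2 lower, median log2 ratio 0.13). Myh11, smooth muscle myosin and the defining marker of mature smooth muscle, was nearly absent, at 0.258 FPKM in WT against 0.0402 FPKM in KD. Of the 7 mural markers 5 did pass the bound, with a median log2 ratio of 0.02 (-0.01 when scaled to the sum). Acta2, smooth muscle actin, was nevertheless at 3045 FPKM in WT against 2512 FPKM in KD (log2 ratio -0.28). The summed level of the mural list was 3078 FPKM in WT against 2545 FPKM in KD, nearly all of it Acta2.

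Most markers of 3 other cell types were higher in KD. At least 1.5-fold higher were 5 of 7 epicardial markers (Tcf21, Upk3b, Upk1b, Tbx18 and Aldh1a2), and the summed level of the list was 158 FPKM in WT against 207 FPKM in KD. Krt19, a keratin of epithelia, made up most of that sum, with 111 FPKM in either group, and the other 6 markers together had 47.0 FPKM in WT against 95.9 FPKM in KD. Likewise at least 1.5-fold higher were 5 of 7 megakaryocyte markers (Pf4, Gp9, Gp1bb, Ppbp and Tubb1), with a summed level of 49.5 FPKM in WT against 109 FPKM in KD. Of the 5 mesenchymal markers that passed the bound 3 were (Col1a1, Dcn and Pdgfra), and the list summed to 31.3 and 50.8 FPKM. No epicardial or megakaryocyte marker was at 0 in either group. Of the endocardial and erythroid markers 0 were at least 1.5-fold apart, and 1 of 5 neural crest and 0 of 4 hepatic and yolk sac markers passed the bound on level. Of 6 outflow tract and second heart field markers 4 passed the bound, all with lower values in KD, 1 of them (Fgf8) by at least 1.5-fold, and Tbx1 was listed at 0 in both groups. The part of these cell types in the levels of Tagln, Ankrd1, Flnc and the other genes was not tested.

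The values of the whole table bear on these levels as follows. FPKM summed to 859452 in WT and 877889 in KD, 5901 genes were at 0 in both groups, and depth is unknown because no counts were given. Actc1, 1 of 2 genes listed with too many reads, stands at 0 there in place of a value. It is thus counted among the 5901 and adds nothing to either sum or to the scaling by the sum. Scaling to the sum moved every log2 ratio by -0.03. Single embryos could not be compared, so whether 1 embryo set a group value is not known. Tbx5ua is not analysed here, so the knockdown was not used to check the labels.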

How the data were processed

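Ventricular RNA of 3 WT and 3 KD embryos at E9.5 was made into Smart-Seq2 libraries from 10 ng of total RNA with 12 and 9 PCR cycles, and read from a single end. Per the labels, TopHat, Bowtie2 and Cuffdiff were used on mm10, with versions and annotation not given in the sources used here. The authors deposited 1 table that gives each gene 1 FPKM value in either group, the KD group being named KO. The deposited table also holds the authors' log2 fold change, test score, p-value and q-value, which were not used. Samples were grouped by title. No fit or test was possible: the planned model on single embryos needs values the table lacks.

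The log2 ratio of KD to WT was computed without pseudocount, and counted past 1.5-fold among genes with a mean of both group values of at least 1 FPKM. Genes at 0 in 1 group count as past the fold. Named were the 10 genes, their paralogues (not all are reported here) and, in each list of cofactors, targets and partners, every gene past 1.5-fold, otherwise the highest and lowest ratio and the highest level. Marker genes past 1.5-fold, Krt19, Elk1, Elk3, Elk4, Acta2, Myh11, Myl2, Tbx1, Actc1 and the genes that share or overlap a locus were named outside this rule, after their values were seen. The genes and lists were chosen with earlier results of these data known. Table starts count from 0 and were raised by 1, which matched RefSeq starts for 4994 of 6586 plus-strand genes (35 unraised). Motifs were chosen after the values were seen. The counting was tested on simulated data. Alternatives were pseudocounts, scalings, folds, filters and shared loci. Python 3.11.15, NumPy 2.4.6, pandas 2.3.3 and Matplotlib 3.10.9 were used.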

Additional observations from a re-analysis of the deposited data

How the results depend on the processing

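No paired analysis was possible because single embryos have no column in the deposited table, and for the same reason leaving out each replicate was not run. The median log2 ratio of the 10 genes, -0.12, became -0.15 when KD was scaled to the WT sum of FPKM and -0.0898 without rows of a shared locus. The signs of Myocd and Tagln2, both near 0, turned under the former scaling (-0.02 and -0.01), and the other 8 genes kept theirs under each pseudocount and scaling. The 3 genes at least 1.5-fold lower became 0 at 2-fold, 4 with WT at least 25% above KD (with Cnn1), and 2 with a pseudocount of 1 (without Flnc) or without shared loci (without Tagln). Over all genes the counts higher and lower, 469 and 330, became 233 and 155 with a pseudocount of 1, 146 and 108 at 2-fold, 1331 and 1035 with either group at least 25% above the other, 1850 and 1471 with no filter over genes above 0 in both groups, and 136 and 97 with a mean of at least 5 FPKM. With a mean of at least 10 FPKM they were 78 and 70, and with at least 100 FPKM 17 and 20, both chosen after seeing the data. The higher share was 58.7%, and 45.9% at 100 FPKM. A stricter fold or filter passes fewer genes by construction, and the cause of the lower share at 100 FPKM was not tested. With depth unknown, ratios of weakly expressed genes such as Klf4 are the least certain.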
